A study of Mus musculus with 3 samples.

Results

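The peaks described here lie on mouse chromosomes 7, 12, 13 and 18, autosomes selected on the low number of H3K79Hcy peaks called on them. They number 1161 of the 34026 peaks of 3 ChIP-seq peak lists. Of these, 124 belong to the H3K79Hcy list, 103 to the KHcy list and 934 to the H3K4me3 list, against 7244, 7176 and 18375 on the other 15 autosomes. ChIP-seq recovers the DNA bound to a protein with an antibody and reads it by sequencing. NE4C, an established mouse neural stem cell line, was the source of chromatin for all 3 lists, with 1 library for each antibody. One antibody was raised against homocysteinylated lysine 79 of histone H3 (H3K79Hcy), another against homocysteinylated lysine in general (KHcy), and that against H3K4me3 served the study as a positive control. Neither the labels nor the ChIP-seq methods of the study name a treatment of these cells. Because there were no replicates, no test between groups was possible, members and chromosomes were not treated as replicates, and the 95% Wilson intervals given for shares cover counting error only.

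Homocysteine is an intermediate of methionine metabolism, and its thiolactone can attach to the side chain of lysine, in histones as in other proteins. Lysine 79 lies on the outer face of the nucleosome core and is better known as a site of methylation in transcribed genes. H3K4me3 marks the starts of active genes and of many CpG-rich promoters, so that a map of this mark is usually dominated by gene starts.

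Fold enrichment was the number of reads in a peak divided by the background of its library over the same length. This background was 1.59 reads per window of 200 bp for H3K79Hcy, 1.49 for KHcy and 1.38 for H3K4me3. The tallest peak of the 4 chromosomes lay at the same position in each list, between bases 3109801 and 3110200 of chromosome 12, and started and ended at the same bases. It held 77 H3K79Hcy reads, 75 KHcy reads and 83 H3K4me3 reads, which is 24.2-, 25.2- and 30.1-fold over background. The nearest protein-coding gene, 1700012B15Rik, was 126 kb away. Another 3 places were tall in all 3 lists and hold related sequence. A peak at bases 75904801 to 75905600 of chromosome 12, 92.6 kb from the potassium channel gene Kcnh5, had 68, 62 and 97 reads (10.7-, 10.4- and 10.03-fold for H3K79Hcy, KHcy and H3K4me3). The next, at bases 77578001 to 77578400 of chromosome 13 in an intron of 2210408I21Rik, had 31, 31 and 32 reads (9.73-, 5.22- and 11.6-fold). The last, in an intron of the adhesion gene Mdga2 on chromosome 12, had 31, 18 and 43 reads (6.49-, 4.04- and 6.23-fold).

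The sequences of 3 of these places are shown because they carry the repeat that these 4 places have in common. Each is the central 300 bases of the H3K79Hcy peak, from the mm9 build, plus strand, at chr12:3109851-3110150, chr12:75905051-75905350 and chr13:77578051-77578350. Capitals mark bases inside a word of 31 bases that occurs more than once in the genome on either strand.
Near the start of chromosome 12: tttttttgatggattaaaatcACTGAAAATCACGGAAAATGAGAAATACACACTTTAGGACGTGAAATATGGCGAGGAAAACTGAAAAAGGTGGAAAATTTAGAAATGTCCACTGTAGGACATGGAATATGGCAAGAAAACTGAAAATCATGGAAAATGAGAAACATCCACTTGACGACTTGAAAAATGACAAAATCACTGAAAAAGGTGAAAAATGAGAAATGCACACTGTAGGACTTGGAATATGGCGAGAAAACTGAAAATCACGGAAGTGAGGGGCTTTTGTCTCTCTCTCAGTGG
Near Kcnh5 on chromosome 12: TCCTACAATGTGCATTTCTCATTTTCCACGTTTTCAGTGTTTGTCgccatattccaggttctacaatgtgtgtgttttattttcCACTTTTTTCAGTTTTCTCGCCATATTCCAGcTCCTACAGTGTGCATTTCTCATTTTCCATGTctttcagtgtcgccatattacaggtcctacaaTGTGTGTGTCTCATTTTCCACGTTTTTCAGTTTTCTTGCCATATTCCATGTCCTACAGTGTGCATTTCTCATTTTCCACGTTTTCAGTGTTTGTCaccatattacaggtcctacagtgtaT
In 2210408I21Rik on chromosome 13: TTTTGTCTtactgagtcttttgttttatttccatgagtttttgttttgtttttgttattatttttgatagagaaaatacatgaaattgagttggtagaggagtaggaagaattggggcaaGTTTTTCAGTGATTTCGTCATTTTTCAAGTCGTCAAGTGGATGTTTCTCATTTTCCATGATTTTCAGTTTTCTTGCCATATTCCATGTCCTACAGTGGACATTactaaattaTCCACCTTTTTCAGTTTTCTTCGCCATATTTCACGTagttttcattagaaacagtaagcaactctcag
In the first of them the capitals cover 279 of 300 bases, in the next 203 and in the last 147. The longest word that recurs inside the first peak has 16 bases and returns after 234 bp. The sequence is that of the gamma (major) satellite, the tandem repeat that fills the pericentromeric heterochromatin of mouse chromosomes, and this name rests on general knowledge of the repeat, since no repeat annotation was used. Peaks were then searched for words of 15 bases found in the first peak, on both strands, leaving out words of 1 or 2 kinds of base. Beside the first peak, which holds them by construction, at least 10 such words were found in the other 3 places and in no further peak of the 4 chromosomes in any list. On the other autosomes 29 H3K79Hcy peaks (0.400%), 26 KHcy peaks (0.362%) and 27 H3K4me3 peaks (0.147%) held them. Of 1856 windows of 1000 bp spaced every 250 kb along the 4 chromosomes, 0 held them, against 2 of 7727 windows elsewhere.

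The values that chose these chromosomes were the numbers of H3K79Hcy peaks, and they are given as a description. Chromosome 18 held 9 H3K79Hcy peaks, chromosome 12 held 23, chromosome 13 held 34 and chromosome 7 held 58. The choice does not follow a single threshold, since chromosome 16 with 25 peaks and chromosome 14 with 37 lie below chromosome 7 and were not included. Next above chromosome 7 came chromosome 17 with 118 peaks. Per Mb of sequence, the H3K79Hcy density was 0.103 on chromosome 18, 0.196 on chromosome 12, 0.292 on chromosome 13 and 0.409 on chromosome 7. The other 15 autosomes ran from 0.263 (chromosome 16) to 7.85 (chromosome 6).

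The other lists were thin on the same chromosomes. KHcy peaks numbered 13, 15, 30 and 45 on chromosomes 18, 12, 13 and 7. H3K4me3 peaks numbered 49, 198, 177 and 510. Over the 4 chromosomes together, the KHcy density was 0.222 peaks per Mb against 3.72 on the other autosomes, and the H3K4me3 density was 2.02 against 9.52. Peaks covered 0.0305% of the sequence for H3K79Hcy, 0.0442% for KHcy and 0.385% for H3K4me3, where the other autosomes had 0.445%, 0.772% and 2.04%. The 4 chromosomes made up 19.4% of the autosomal sequence and carried 1.68% of the H3K79Hcy list, 1.42% of the KHcy list and 4.84% of the H3K4me3 list. The H3K4me3 list held 7.53 peaks for each H3K79Hcy peak here and 2.54 elsewhere, a ratio that the choice of the chromosomes by their H3K79Hcy count raises by itself. Protein-coding genes numbered 8.98 per Mb here and 8.94 elsewhere, but this value rests on chromosome 7 with 14.6 per Mb, since chromosomes 12, 13 and 18 had 5.99, 7.44 and 5.90. Peaks of the 4 chromosomes held 3705 H3K79Hcy, 4230 KHcy and 34208 H3K4me3 reads. Total reads per library and per chromosome were not analysed here, so a low yield of reads and a low yield of peaks on these chromosomes cannot be told apart.

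**Figure D1:**
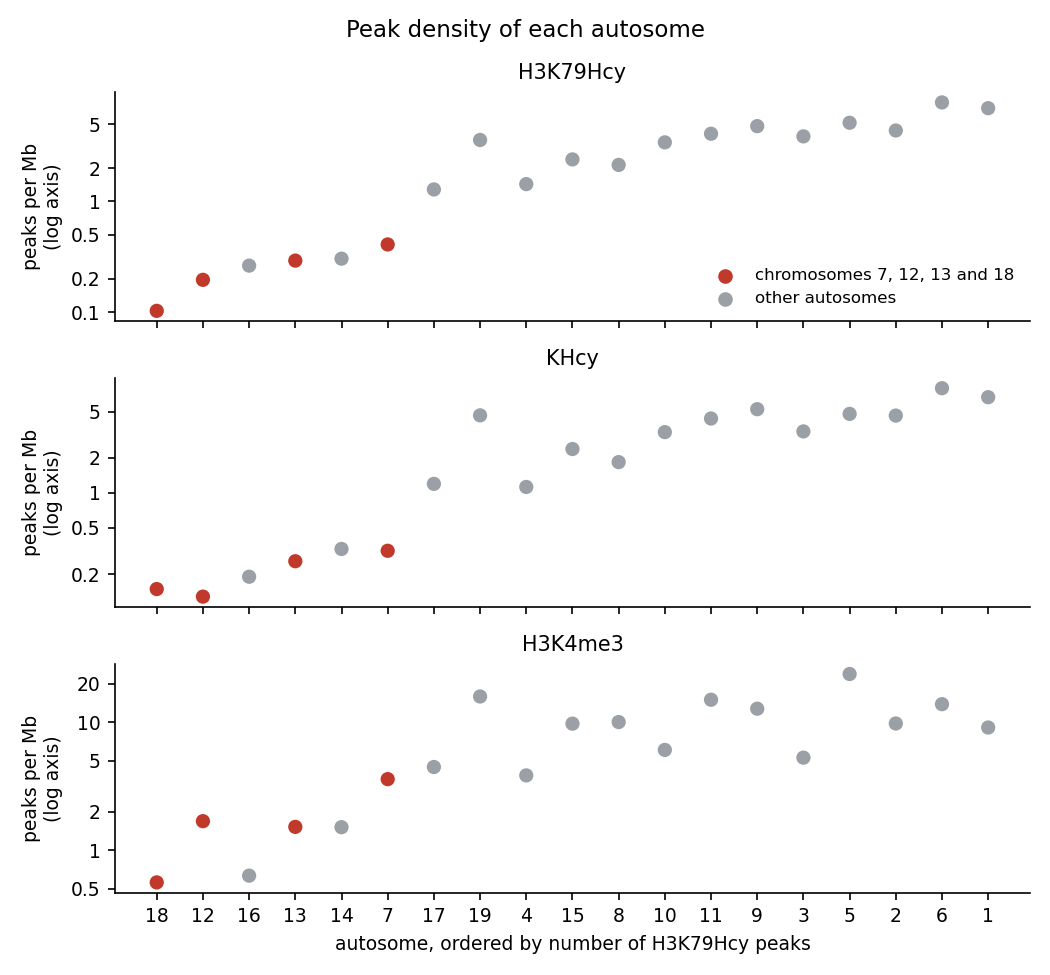
Peaks per Mb of each autosome (log axis) in the H3K79Hcy, KHcy and H3K4me3 lists, 1 point for each autosome, ordered by the number of H3K79Hcy peaks. Chromosomes 7, 12, 13 and 18 (red) lie at the low end in all 3 lists together with chromosomes 14 and 16, and chromosome 7 is the densest of the 4 in every list.

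Other tall peaks were shared as well. In an intron of Kctd16 on chromosome 18, which encodes an auxiliary subunit of GABA-B receptors, 40, 42 and 58 reads lay between bases 40467601 and 40468000 (12.6-, 14.1- and 21-fold). A peak at bases 3004201 to 3006600, close to the assembled start of chromosome 18, had 180 H3K79Hcy reads (9.42-fold) and 256 H3K4me3 reads (15.4-fold), inside a KHcy peak of 7800 bp with 341 reads. A place 164 kb from Gdi2 on chromosome 13, at bases 3372201 to 3373400, had 74, 80 and 117 reads (7.74-, 7.69- and 12.1-fold). In each of these places the H3K4me3 fold was the highest of the lists. Peaks over 5-fold numbered 16 of 124 for H3K79Hcy (12.9%), 11 of 103 for KHcy (10.7%) and 27 of 934 for H3K4me3 (2.89%), against 2.47%, 1.59% and 1.29% on the other autosomes. Of the 16 H3K79Hcy peaks, 13 lay in all 3 lists and 15 had over 10% of their 31-base words repeated in the genome. Elsewhere this held for 117 and 132 of 179 H3K79Hcy peaks over 5-fold, so most tall peaks there were of the same kind. The share over 5-fold was not particular to the 4 chromosomes. Chromosome 16 had 5 of 25 H3K79Hcy peaks (20%) and 6 of 18 KHcy peaks (33.3%) over 5-fold, while chromosome 7 had 5.17% and 4.44%.

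Most peaks were low. The median fold was 2.93 (quartiles 2.51 to 3.58) for H3K79Hcy, 2.48 (2.24 to 2.95) for KHcy and 2.61 (2.32 to 3.00) for H3K4me3, and 2.69, 2.24 and 2.59 on the other autosomes. In reads per 200 bp these are 4.67, 3.68 and 3.6 here and 4.29, 3.33 and 3.57 elsewhere. Without any 1 of the 4 chromosomes the median stayed between 2.89 and 2.98 for H3K79Hcy, between 2.47 and 2.52 for KHcy and between 2.59 and 2.71 for H3K4me3. Among the 4 chromosomes the H3K79Hcy median ran from 2.87 on chromosome 12 to 3.56 on chromosome 18, and the H3K4me3 median from 2.53 on chromosome 7 to 2.78 on chromosome 13. Outside the 4, chromosome 16 had a median fold of 3.14 for H3K79Hcy and 2.75 for KHcy, and chromosome 4 had 3.01 and 2.69. The median width was 1000 bp for H3K79Hcy, 1800 bp for KHcy and 1800 bp for H3K4me3, where the other autosomes had 1200, 2000 and 1800 bp. A stricter threshold was set at the lowest score of each list plus ln(100), and 47.6% of H3K79Hcy (30.6% elsewhere), 53.4% of KHcy (40.7%) and 53.0% of H3K4me3 peaks (59.6%) passed it. The homocysteinylation peaks thus passed it more often here than elsewhere, and the H3K4me3 peaks less often.

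Repeated sequence was common in the peaks that remained. The median H3K79Hcy peak had 20.6% of its 31-base words repeated in the genome, the median KHcy peak 22.2% and the median H3K4me3 peak 9.76%, against 0.684%, 1.80% and 2.42% on the other autosomes. Over 10% of the words were repeated in 79 of 124 H3K79Hcy peaks (63.7%), 64 of 103 KHcy peaks (62.1%) and 463 of 934 H3K4me3 peaks (49.6%). The other autosomes had 15.96%, 14.8% and 20.6%. Windows of 1000 bp placed at even spacing gave 34.9% (32.8 to 37.1) on the 4 chromosomes and 32.3% (31.3 to 33.4) elsewhere. The peaks here thus lay above the level of such windows, while the pooled peaks elsewhere lay below it, although KHcy and H3K4me3 peaks were wider than these windows. Outside the 4, chromosome 16 also had repeated words over 10% in 52.0% of its H3K79Hcy peaks and 53.3% of its H3K4me3 peaks, and chromosome 4 in 51.8% of its H3K79Hcy and 53.2% of its KHcy peaks. G+C differed less, with medians of 40.3%, 40.5% and 43.2% here and 40.4%, 40.9% and 45% elsewhere. Reads from repeated sequence can be placed at any copy, and how the aligner treated them is not given in the sources used here.

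Overlap between the lists was frequent for the homocysteinylation peaks. Of 124 H3K79Hcy peaks, 47 (37.9%, 29.8 to 46.7) overlapped a KHcy peak by at least 1 bp and 66 (53.2%, 44.5 to 61.8) an H3K4me3 peak, against 13.3% and 14.6% on the other autosomes. Peaks in all 3 lists made up 35.5% of the H3K79Hcy peaks (6.79% elsewhere). Of 103 KHcy peaks, 41 (39.8%) overlapped an H3K79Hcy peak and 69 (67.0%) an H3K4me3 peak, against 12.4% and 15.7%. These shares were higher although the list being overlapped covered less of the sequence here. In the other direction, 56 of 934 H3K4me3 peaks (6.0%) overlapped an H3K79Hcy peak and 68 (7.28%) a KHcy peak, close to 5.09% and 6.07% elsewhere, so that 91.0% of the H3K4me3 peaks met neither (91.1% elsewhere). By chromosome, H3K79Hcy peaks at an H3K4me3 peak ran from 39.1% on chromosome 12 to 70.6% on chromosome 13. The other autosomes ran from 6.45% (chromosome 10) to 56% (chromosome 16), so chromosome 16 lay within the range of the 4, as did chromosome 4 with 52.3%.

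The overlap moved with the repeated sequence. H3K79Hcy peaks with over 10% repeated words overlapped a KHcy peak in 44 of 79 cases (55.7%) and an H3K4me3 peak in 58 (73.4%), against 31.4% and 40.3% for peaks of the same kind elsewhere. Those with up to 10% overlapped a KHcy peak in 3 of 45 cases (6.67%, 2.29 to 17.9) and an H3K4me3 peak in 8 (17.8%, 9.29 to 31.3), where the other autosomes had 9.86% and 9.76%, both inside these intervals. KHcy peaks with over 10% overlapped an H3K4me3 peak in 57 of 64 cases (89.1%), against 39.0% elsewhere. KHcy peaks with up to 10% did so in 12 of 39 (30.8%, 18.6 to 46.4). The other autosomes had 11.6% there, below this interval, so for this pair the overlap was also higher among peaks with few repeated words. H3K79Hcy peaks in all 3 lists had a median fold of 3.51 and a median of 31.9% repeated words. Those in the H3K79Hcy list alone had 2.64-fold and 3.33%. The part of repeated sequence in the overlap was not tested.

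**Figure D2:**
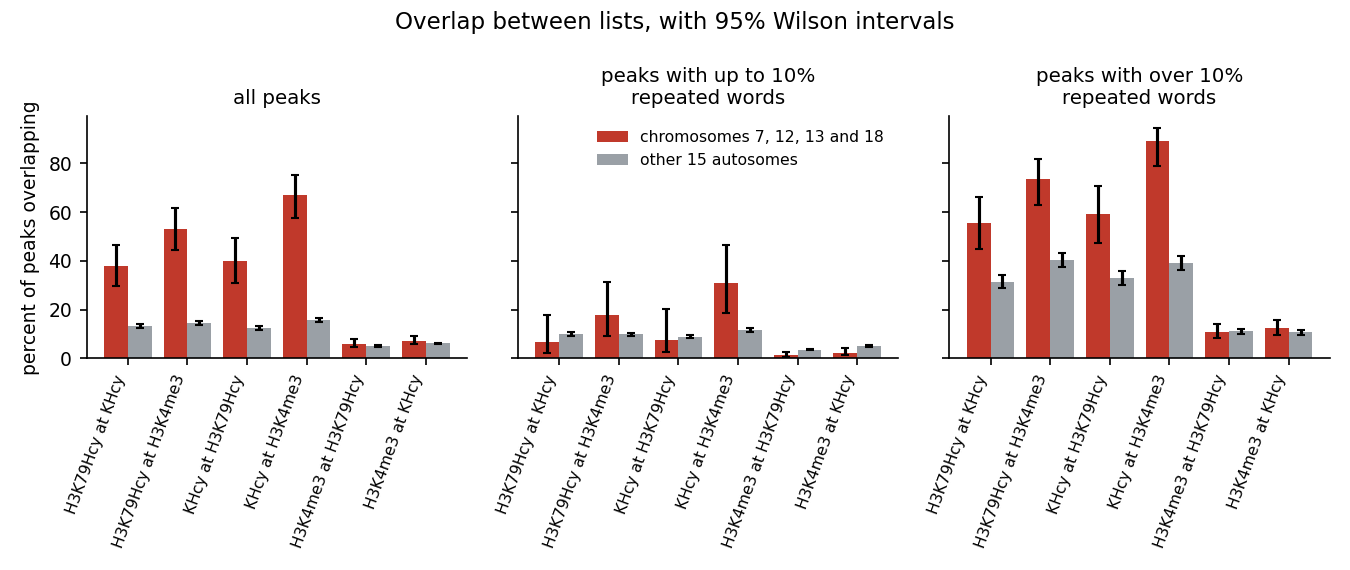
Percent of the peaks of 1 list that overlap a peak of another by at least 1 bp, for all peaks and for peaks with up to or over 10% repeated 31-base words, on chromosomes 7, 12, 13 and 18 (red) and on the other 15 autosomes (grey), with 95% Wilson intervals. H3K79Hcy peaks at KHcy were 37.9% against 13.3% in all, and 6.67% against 9.86% among peaks with few repeated words.

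**Figure D3:**
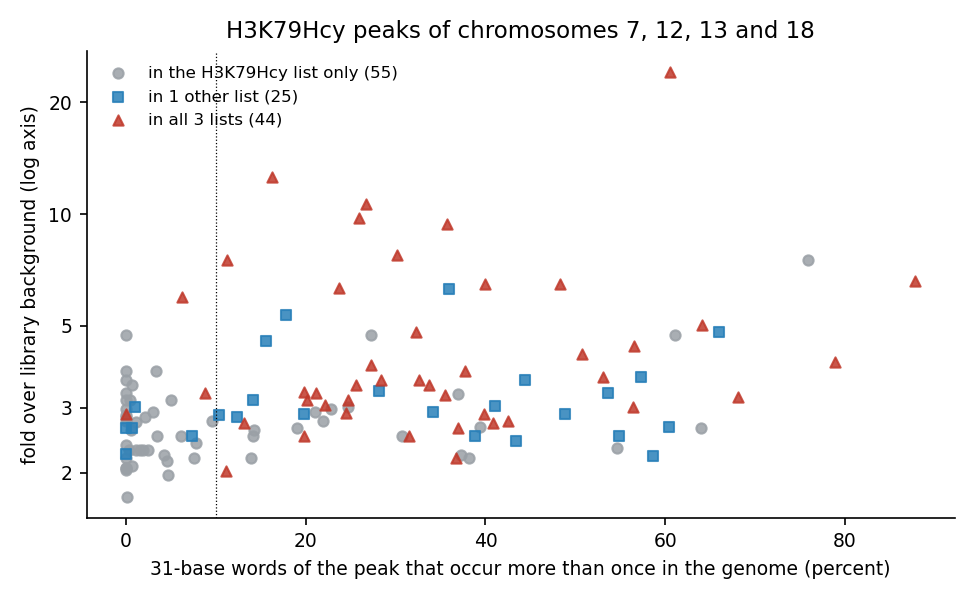
The 124 H3K79Hcy peaks of chromosomes 7, 12, 13 and 18, by the percent of their 31-base words that occur more than once in the genome and their fold over background (log axis), with symbols for peaks in the H3K79Hcy list only (55), in 1 other list (25) and in all 3 (44). The dotted line marks 10%, and 15 of the 16 peaks over 5-fold lie to its right. On the other autosomes, not shown, 132 of 179 such peaks had over 10%.

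Peaks were crowded into a few places. Of 100 bins of 5 Mb along the 4 chromosomes, 51 held no H3K79Hcy peak, 62 no KHcy peak and 18 no H3K4me3 peak. The 5 fullest bins held 46.8% of the H3K79Hcy list, 49.5% of the KHcy list and 36.9% of the H3K4me3 list. The fullest bin for H3K79Hcy and H3K4me3 was the stretch between 5 and 10 Mb of chromosome 7, with 17 H3K79Hcy, 10 KHcy and 132 H3K4me3 peaks, whereas the KHcy list was fullest between 10 and 15 Mb of chromosome 13, with 16 peaks. The stretch of chromosome 7 holds 70 protein-coding genes, of which 30 encode vomeronasal receptors, 8 olfactory receptors and 11 zinc finger proteins. Stretches of chromosome 7 with more receptor genes held fewer peaks. That between 20 and 25 Mb, with 65 vomeronasal receptor genes, had 0 H3K79Hcy, 1 KHcy and 20 H3K4me3 peaks. That between 110 and 115 Mb, with 137 olfactory receptor genes, had 0 peaks in every list. Between 115 and 120 Mb of chromosome 12 lay 47 H3K4me3 peaks and 99 annotated segments of the immunoglobulin heavy chain locus. Between 65 and 70 Mb of chromosome 13 lay 35 H3K4me3 peaks with a median of 54.9% repeated words, and 25 zinc finger genes. In the 10 bins fullest in H3K4me3, only 7 of 499 H3K4me3 peaks (1.4%, 0.681 to 2.87) were centred in a promoter, against 34 of 435 (7.82%, 5.65 to 10.7) in the rest of the 4 chromosomes.

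H3K79Hcy peaks within 50 kb of each other formed 4 groups of at least 5 peaks, which held 39 of the 124 peaks (31.5%). The largest held 16 H3K79Hcy peaks in 108 kb of chromosome 7, from base 39104001 to 39212400, with 9 KHcy and 19 H3K4me3 peaks. No protein-coding gene lies in it, and the nearest, Pop4, a subunit of ribonuclease P, is 47.6 kb away. All its H3K79Hcy peaks had repeated words, from 19.8% to 66.0%, and 10 of 16 lay in all 3 lists. The next held 12 H3K79Hcy peaks in 124 kb of chromosome 13, from base 12900201 to 13024600, with 14 KHcy and 27 H3K4me3 peaks, 7.86 kb from Prl2c3, a member of the prolactin family. Its peaks had 19.8% to 60.4% repeated words, and none was in the H3K79Hcy list alone. A further 6 lay in 36.8 kb of chromosome 7, from base 46527001, 7.10 kb from Gm16387. The last group, 5 peaks in 88.8 kb across olfactory receptor genes from base 6412001 of chromosome 7, differed from the others, with a median of 0.619% repeated words and 0 of 5 peaks in all 3 lists. The groups share local sequence, so their peaks are not independent observations. Outside the groups, 25 of 85 H3K79Hcy peaks overlapped a KHcy peak (29.4%, 20.8 to 39.8) and 32 an H3K4me3 peak (37.6%, 28.1 to 48.3).

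One window from each of the large groups is shown, as examples of repeated sequence under such peaks outside the satellite places. They are the central 300 bases of the H3K79Hcy peak of highest fold in each group (4.81- and 3.45-fold), mm9, plus strand, at chr7:39190751-39191050 and chr13:12990851-12991150, with capitals as above.
Group on chromosome 7: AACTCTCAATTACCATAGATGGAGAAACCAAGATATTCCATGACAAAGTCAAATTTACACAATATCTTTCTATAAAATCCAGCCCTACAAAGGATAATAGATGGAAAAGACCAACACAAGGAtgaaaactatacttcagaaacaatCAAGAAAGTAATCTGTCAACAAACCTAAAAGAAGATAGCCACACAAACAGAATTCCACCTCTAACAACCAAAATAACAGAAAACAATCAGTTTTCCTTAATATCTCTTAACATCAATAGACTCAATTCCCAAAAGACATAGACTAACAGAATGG
Group on chromosome 13: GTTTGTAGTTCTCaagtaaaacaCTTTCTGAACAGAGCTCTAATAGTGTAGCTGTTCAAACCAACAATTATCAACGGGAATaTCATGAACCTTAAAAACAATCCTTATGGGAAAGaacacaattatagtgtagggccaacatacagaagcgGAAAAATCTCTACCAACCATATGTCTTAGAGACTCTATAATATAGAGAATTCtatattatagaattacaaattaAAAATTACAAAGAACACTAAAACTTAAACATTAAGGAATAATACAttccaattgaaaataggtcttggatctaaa
In them 276 and 201 of 300 bases lie in repeated words, and G+C is 32.7% and 30.3%.

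KHcy peaks formed 4 groups too, of which 3 lay at the places just named. The remaining one, on chromosome 18, was of another kind. It held 5 KHcy peaks of 1.95- to 2.41-fold over the genes Seh1l, which encodes a nucleoporin, and Cep192, which encodes a centrosomal protein. Their repeated words had a median of 3.44%, all 5 lay in the KHcy list alone, and 1 H3K79Hcy peak and 1 H3K4me3 peak lay in the same 49 kb.

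Between these places the chromosomes were bare. Stretches of over 1 Mb without an H3K4me3 peak made up 81.1% of the length of the 4 chromosomes and 41.9% of the other autosomes. They numbered 111 here, and the longest ran for 15.99 Mb on chromosome 7, from base 87407001 to 103397600, across the starts of 119 protein-coding genes, 47 of them CpG-rich. A start was called CpG-rich where the 250 bp on either side had at least 50% G+C and an observed over expected CpG of at least 0.6. Of the CpG-rich starts of the 4 chromosomes, 68.1% (1277) lay in such stretches, against 22.4% elsewhere. By chromosome the share was 59.8% (12), 64.2% (7), 75.8% (13) and 78.7% (18), and the highest on another autosome was 72.1% on chromosome 16. The lower density of H3K4me3 peaks given above by itself leaves longer stretches empty, with more gene starts in them. H3K79Hcy peaks in these stretches numbered 30 (24.2% of the list, against 14.3% elsewhere) and KHcy peaks 15 (14.6%, against 10.5%). The stretches are free of H3K4me3 peaks by definition. The 66 H3K79Hcy and 69 KHcy peaks that overlap an H3K4me3 peak therefore lie outside them or at their edge, whatever the other peaks do. Outside these stretches the H3K4me3 density was 10.5 peaks per Mb here and 16.3 elsewhere, and 30 of 598 CpG-rich starts (5.02%, 3.54 to 7.07) were inside an H3K4me3 peak, against 12.2%.

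**Figure D4:**
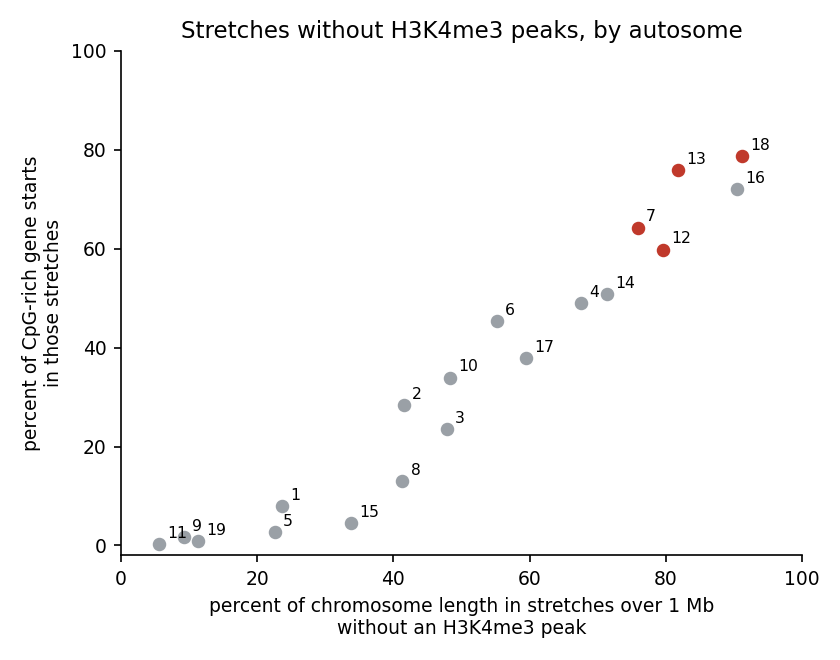
For each autosome, the percent of its length in stretches of over 1 Mb without an H3K4me3 peak and the percent of its CpG-rich gene starts that lie in them. Chromosomes 7, 12, 13 and 18 (red) lie between 75.9% and 91.3% of length and between 59.8% and 78.7% of CpG-rich starts, with chromosome 16 beside them.

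The H3K4me3 list was the one for which gene starts had most reason to stand out. An H3K4me3 peak covered the start of 44 of 4159 protein-coding genes on the 4 chromosomes, which is 1.06% (0.789 to 1.42), where the share over all 21418 autosomal genes was 5.65% and that of the other 15 autosomes 6.76%. By chromosome it was 22 of 2072 genes on chromosome 7 (1.06%), 13 of 704 on chromosome 12 (1.85%), 4 of 866 on chromosome 13 (0.462%) and 5 of 517 on chromosome 18 (0.967%). Chromosome 16 had 0.742%, so this low share was not limited to the 4. CpG-rich starts were covered in 30 of 1875 cases (1.60%, against 9.45% elsewhere) and other starts in 14 of 2284 (0.613%, against 4.13%). On no autosome did the list cover most gene starts, where this mark is usually found, and the highest share was 13.95% on chromosome 19. Seen from the peaks, however, the share in promoters was similar. The centre of 41 of 934 H3K4me3 peaks (4.39%, 3.25 to 5.90) lay within 2000 bp upstream of a gene start, against 5.61% (5.29 to 5.95) elsewhere, and promoters so defined made up 1.76% and 1.75% of the sequence. Among the 4, chromosome 18 had the highest share, 4 of 49 (8.16%), while chromosomes 3, 11 and 19 had 8.33%, 8.74% and 8.86%. Among peaks with up to 10% repeated words the order turned, with 6.58% here and 6.29% elsewhere.

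**Figure D5:**
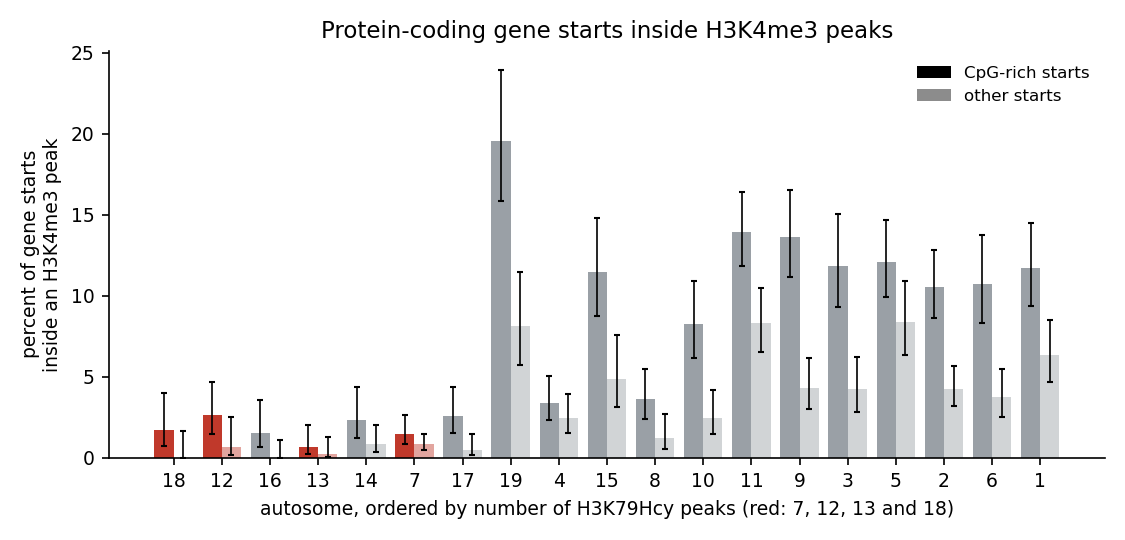
Percent of protein-coding gene starts inside an H3K4me3 peak on each autosome, for CpG-rich starts (dark) and other starts (light), with 95% Wilson intervals. On chromosomes 7, 12, 13 and 18 (red) CpG-rich starts lie between 0.698% and 2.63%, and on the other autosomes between 1.53% (chromosome 16) and 19.6% (chromosome 19).

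The 41 H3K4me3 peaks over a gene start had a median fold of 2.44, a median of 1.24% repeated words and 51.6% G+C, where the other 893 peaks had 2.63-fold, 10.6% and 42.9%. None of them reached 5-fold. Of the 44 genes, 30 had a CpG-rich start and 21 a peak that passed the stricter score. Only the peak of Clcn4-2 overlapped an H3K79Hcy peak, and those of Clcn4-2 and Sap130 overlapped a KHcy peak.

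Covered starts included both CpG-rich and CpG-poor ones, and the 200 bases upstream of 3 of them are shown for this contrast, from mm9, minus strand, with each CpG in capitals. They lie at chr7:7252223-7252422 (Clcn4-2), chr7:149852722-149852921 (Igf2) and chr7:5836145-5836344 (Vmn1r64).
Clcn4-2: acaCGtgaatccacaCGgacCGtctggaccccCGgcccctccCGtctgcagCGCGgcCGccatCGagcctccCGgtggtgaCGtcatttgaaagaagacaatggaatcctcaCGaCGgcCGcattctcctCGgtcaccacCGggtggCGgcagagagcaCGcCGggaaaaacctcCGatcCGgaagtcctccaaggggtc
Igf2: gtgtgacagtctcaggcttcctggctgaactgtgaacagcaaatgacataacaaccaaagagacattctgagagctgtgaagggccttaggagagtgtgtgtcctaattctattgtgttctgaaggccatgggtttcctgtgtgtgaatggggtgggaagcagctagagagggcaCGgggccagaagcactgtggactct
Vmn1r64: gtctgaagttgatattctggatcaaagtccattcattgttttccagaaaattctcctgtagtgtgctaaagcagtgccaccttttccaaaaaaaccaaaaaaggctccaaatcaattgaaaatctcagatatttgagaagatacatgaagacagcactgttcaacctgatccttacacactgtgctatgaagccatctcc
They hold 21, 1 and 0 CpG. The start of Clcn4-2 is CpG-rich, whereas those of Igf2, the imprinted growth factor gene, and Vmn1r64, a vomeronasal receptor gene, are not.

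The tallest H3K4me3 peak over a gene start of chromosome 7 was that of Clcn4-2, which encodes a chloride and proton exchanger of the CLC family, with 22 reads in 800 bp (3.98-fold). Next came the starts of Nlrp2 and Gm5065, which lie close together on opposite strands (40 reads, 3.22-fold) and Zfp667, a zinc finger gene (31 reads, 3.21-fold). On chromosome 12 they were Fos, the immediate early transcription factor (37 reads, 2.68-fold), Smek1, a regulatory subunit of protein phosphatase 4 (25 reads, 2.59-fold), and Vash1, an inhibitor of angiogenesis (27 reads, 2.44-fold). On chromosome 13 the start of Gm9858, a gene model inside Naip1, had 30 reads (3.10-fold), the isoleucyl-tRNA synthetase gene Iars 37 (2.23-fold) and Ctla2b 57 in 3800 bp (2.17-fold). On chromosome 18 they were Epc1, a subunit of the NuA4 acetyltransferase complex (20 reads, 3.62-fold), Sap130, a subunit of the Sin3 corepressor complex (31 reads, 2.81-fold), and Zmat2, a splicing factor (27 reads, 2.44-fold).

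Genes with an H3K79Hcy peak were few. Their number over the start was 2 of 4159, Clcn4-2 and Gp6 (0.406% of autosomal genes in all), and over the body 28 (0.673%, where all autosomal genes had 8.13%). For KHcy the numbers were 1 start, Clcn4-2 (1.01% over the autosomes), and 29 bodies (0.697%, against 9.65%), and for H3K4me3 the bodies were 173 (4.16%, against 20.5%). These H3K79Hcy counts follow from the choice of the chromosomes. Clcn4-2 was the one gene with peaks of all 3 lists at its start, with 19 H3K79Hcy reads in 400 bp (5.97-fold), 38 KHcy reads in 1200 bp (4.26-fold) and the 22 H3K4me3 reads given above. The peak of Gp6, which encodes the platelet collagen receptor glycoprotein VI, held 22 reads (2.30-fold) and lay in no other list. By centre, 2 further H3K79Hcy peaks lay in promoters, those of Olfr1336 and of Sema6a, which encodes a transmembrane semaphorin, and both were named after their values had been seen.

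Places inside genes with peaks of all 3 lists were also seen in introns of Jarid2, a partner of Polycomb repressive complex 2 (16 H3K79Hcy reads, 5.02-fold), and Ppp2r2b, a regulatory subunit of protein phosphatase 2A (21 reads, 6.59-fold), beside Kctd16, Mdga2, 2210408I21Rik and 2410141K09Rik. Jarid2 and Ppp2r2b were named after their values had been seen. The repeated words of these H3K79Hcy peaks ran from 16.2% in Kctd16 to 87.8% in Ppp2r2b. The genes with most H3K79Hcy peaks in the body, Gp6, 2410141K09Rik and Naip1, of the NAIP family of inflammasome sensors, had 2 each. For KHcy they were Seh1l with 3, 2410141K09Rik with 2 and Cep192 with 2. For H3K4me3 they were Nlrp2 with 10, Nlrp4c, of the same NLRP family, with 7 and the vomeronasal receptor gene Vmn1r90 with 7. Hs3st4, a heparan sulfate sulfotransferase gene, also had 7, with a median of 0% repeated words where those of the others had 12.9% to 20.9%. Genes with an H3K79Hcy peak had a median length of 65.4 kb against 12.7 kb for genes without, and 72.0 against 13.9 kb on the other autosomes. A longer gene meets a peak more often by its length alone, so this difference is a description only.

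Pooled over the 4 chromosomes, peaks lay between genes more often than elsewhere. By centre, 74.2% of H3K79Hcy (65.8 to 81.1), 67.0% of KHcy (57.4 to 75.3) and 73.3% of H3K4me3 peaks (70.4 to 76.1) fell between protein-coding genes, against 57.2%, 50.6% and 55.3% on the other autosomes. Introns held 16.9%, 25.2% and 17.2%, against 36.9%, 40.9% and 34.3%. Protein-coding genes covered 36.6% of the sequence of the 4 chromosomes and 40.4% of the rest. Chromosome 18 stood apart for KHcy and H3K4me3. Its KHcy peaks lay over a gene in 10 of 13 cases (76.9%, against 48.8% on the other autosomes), of which 5 are those of Seh1l and Cep192. Its H3K4me3 peaks did so in 24 of 49 cases (49.0%, against 42.9%). On chromosomes 7, 12 and 13 the H3K4me3 share was 25.9%, 15.7% and 22.6%. H3K79Hcy peaks over a gene ran from 17.2% on chromosome 7 to 34.8% on chromosome 12. Outside the 4, chromosome 16 with 32.0% and chromosome 3 with 32.5% lay within this range.

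Gene lists are set beside the shares of all genes of the 4 chromosomes, which for H3K4me3 are the 1.06% of starts and 4.16% of bodies given above. An H3K79Hcy peak lay over 0 members of each of 8 gene lists, beside the 28 gene bodies with such a peak in all. Among 254 olfactory receptor genes, an H3K4me3 peak covered the start of 1 (Olfr1346, 2.66-fold) and the body of 2. Among 192 vomeronasal receptor genes it covered 1 start (Vmn1r64, 2.09-fold) and 5 bodies, among 24 clustered protocadherin genes 0 and 1 (Pcdhgc5). Of 140 zinc finger genes, 74 of them with a CpG-rich start, 4 (2.82% of 142 gene models) had a covered start and 13 (9.15%) a covered body, both above those shares. The covered starts were those of Zfp667, Zfp146 (3.14-fold), Zfp579 (2.90-fold) and Zfp936 (2.66-fold). The count of 4 starts is small, and on the other autosomes 4.48% of zinc finger starts were covered, below the share of all genes there. Replication-dependent histone genes of the Hist1 cluster had 0 of 55 starts and 0 of 55 bodies covered by any list. Of these starts 42 are CpG-rich, and a count of 0 lies near the low share of covered CpG-rich starts given above. Ribosomal protein genes had 0 of 36 starts and 2 bodies covered by H3K4me3 (Rps9 and Rpl36al).

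Of 23 imprinted genes, Igf2 had a covered start (34 reads, 2.46-fold). An H3K4me3 peak lay over the body of 6 (26.1%, above the share of all genes), which also include Peg3, Usp29, Zim1, Snrpn and Kcnq1. Zim1 and Peg3 lie in a single group of 40 H3K4me3 peaks and Usp29 in a nearby group of 19, so these genes are not independent observations. A KHcy peak lay in Zim1 (37 reads, 1.78-fold). Of 43 regulators of neural development, 35 with a CpG-rich start, 2 had a covered start, among them Nkx2-9 (29 reads, 1.91-fold). A covered body was seen for 10 (25% of 44 gene models, above the share of all genes), among them Nkx2-1, Pax9, Ptch1, Nr2f1, Isl1 and Smad7. Another was Fgfr2, annotated over 3009 kb. The length of the genes was not taken into account for either list. Sox4, a transcription factor of neural progenitors, had a KHcy peak over its end (46 reads in 3400 bp, 1.82-fold) and an H3K4me3 peak over its body.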

How the data were processed

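ChIP-seq was performed by the authors on NE4C chromatin with 1 library for each of 3 antibodies. Reads were aligned to mm9 with Bowtie 2 and peaks were called against an input control with MACS according to the methods (version 1.4.2 in the submitters' processing notes), while a legend of the study names SICER. The deposited lists give for each peak its bounds and length in bp in steps of 200 bp, a count of reads and a score, which carry no header. For peaks of a single window the deposited score equalled minus the natural log of a Poisson probability, from which the background per 200 bp was obtained. Total depth was not analysed here, so a missing peak does not show that a mark is absent.

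Peaks were placed on the NCBIM37 (mm9) sequence and GENCODE M1 protein-coding genes, by centre, in the order promoter (2000 bp upstream), downstream (1000 bp), exon, intron and between genes. A gene start or body counted as covered from 1 bp of overlap. Computations used Python 3.11.15, numpy 2.4.6, pandas 2.3.3 and scipy 1.17.1. The overlap counts were tested on simulated data. With 1 library per antibody no test between groups was made. The chromosomes, gene lists and alternatives were chosen with earlier results of these data known, and the measures of repeated words, satellite words, CpG-rich starts, groups and empty stretches, with their thresholds, after the data had been seen. Named were the 3 H3K4me3 peaks of highest fold over a gene start per chromosome, the 3 highest peaks of each list, genes with an H3K79Hcy peak over the start, the 6 highest H3K79Hcy peaks shared by all lists, the 3 genes with most peaks in each list, and listed genes with a covered start. Other genes and places were named after their values had been seen. A few values are not reported here.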

Additional observations from a re-analysis of the deposited data

How the results depend on the processing

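Of 213 alternatives to 25 values, 161 stayed within the spread of the value and 44 moved. The remaining 8 were counted as turning the order between the 4 chromosomes and the other autosomes. A further turn, in the H3K4me3 fold, is given below. No paired analysis was possible because each antibody had 1 library. Adding chromosomes 14 and 16, keeping peaks with up to 10% repeated words and leaving out groups of near peaks were alternatives chosen after seeing the data. The cause of the changes was not tested. Values of the other autosomes follow in parentheses.

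With the stricter score, densities per Mb were 0.127 (1.15) for H3K79Hcy, 0.119 (1.51) for KHcy and 1.07 (5.67) for H3K4me3. The median fold was 3.25 for H3K79Hcy and 2.74 for H3K4me3, repeated words were 31.5% and 16.2%, widths 2200 bp for KHcy and 2000 bp for H3K4me3, and H3K4me3 G+C 42.7%. Overlaps were 54.2% (21%) for H3K79Hcy at KHcy, 81.4% (24.2%) for H3K79Hcy at H3K4me3, 50.9% (14.6%) for KHcy at H3K79Hcy and 7.88% (4.12%) for H3K4me3 at H3K79Hcy. H3K4me3 then covered 0.505% (5.03%) of starts and had 3.03% (5.68%) of its peaks in promoters.

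With peaks of up to 10% repeated words in both lists, densities were 0.0971 (3.15), 0.0842 (3.17) and 1.02 (7.56), and median folds 2.64 (2.64), 2.32 (2.24) and 2.48 (2.59). The H3K4me3 fold thus fell below the other autosomes, where it was 2.61 (2.59) with all peaks. The order turned for H3K79Hcy at KHcy, 2.22% (8.97%), KHcy at H3K79Hcy, 2.56% (8.41%), H3K4me3 at H3K79Hcy, 0.849% (3.39%), H3K4me3 at KHcy, 2.34% (4.61%), and the H3K4me3 promoter share, 6.58% (6.29%). H3K79Hcy at H3K4me3 was 11.1% (8.67%), KHcy at H3K4me3 25.6% (10.7%), and KHcy starts 0%.

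Without chromosome 7, H3K79Hcy and KHcy covered 0% of starts, and for H3K4me3 the density was 1.32, the fold 2.71, repeated words 13.3%, overlap with H3K79Hcy 7.78% and with KHcy 9.91%. Without chromosome 13, H3K4me3 at H3K79Hcy, 4.62% (5.09%), and at KHcy, 5.55% (6.07%), fell below the other autosomes, as did the latter, 6.03% (6.35%), with peaks within 3000 bp merged. With at least 50% of the peak overlapped, KHcy at H3K79Hcy was 27.2% (7.32%), H3K4me3 at H3K79Hcy 3.21% (2.73%) and at KHcy 5.46% (3.99%). Leaving out groups of near peaks on the 4 chromosomes was set beside all peaks of the other autosomes, so the sides were not treated alike. Without groups of near peaks in either list, H3K79Hcy at KHcy was 29.4% (13.3%), at H3K4me3 29.4% (14.6%), and KHcy at H3K4me3 39.7% (15.7%). With chromosomes 14 and 16 added the last was 54.0% (15.6%). The H3K4me3 promoter share was 2.46% (3.21%) for promoters of 1000 bp, 10.4% (15.1%) for peaks within 1000 bp of a start and 6.64% (7.75%) with all annotated genes, where KHcy covered 0.138% (1.12%) of starts. H3K4me3 lay within 1000 bp of 2.45% (17.0%) of starts.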
